A study of Homo sapiens with 6 samples.

Results

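Pleckstrin, the MARCKS proteins and the protein kinase C (PKC) family were followed in OCI-AML3 cells, a long-established line from a human acute myeloid leukaemia. The set held 10 named genes of 60660 gene IDs in each library: 4 PKC substrates or their close relatives (PLEK, PLEK2, MARCKS and MARCKSL1) and 6 PKC isoforms (PRKCA, PRKCB, PRKCD, PRKCE, PRKCH and PRKCQ). All 10 were found by symbol. The genes were chosen by a comparison of these same libraries whose results were known, so their differences between the groups are given as a description, with no p-value. Bulk RNA was sequenced from 3 libraries of cells with an empty vector and from 3 of cells overexpressing SLC2A3, the gene of the glucose transporter GLUT3. All 6 libraries are from cells given 250 µM vitamin C, so every difference below is between vitamin C-treated cells. Neither the promoter of the vector nor the clonality of the cells is given in the sources used here.

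PKC enzymes are serine/threonine kinases that are switched on at membranes when phospholipase C splits the lipid PIP2 into diacylglycerol and inositol trisphosphate. The conventional isoforms alpha and beta need calcium and diacylglycerol, and delta, epsilon, eta and theta need diacylglycerol alone. Pleckstrin, the classical PKC substrate of platelets and leukocytes, and MARCKS, which covers PIP2 at the plasma membrane and binds actin and calmodulin, are among the best-known targets in myeloid cells.

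The sites that make these proteins PKC targets are shown first, as reference coding sequence from GENCODE 29 transcripts on GRCh38, for PLEK and for MARCKS, which differed most below, and for the close relative and the kinases that stand beside them. For MARCKS and MARCKSL1 the window is the 25 codons richest in lysine and arginine, which is the effector domain. Capitals mark serine codons.

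MARCKS: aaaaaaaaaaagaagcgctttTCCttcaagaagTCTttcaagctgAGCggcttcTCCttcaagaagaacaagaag

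MARCKSL1: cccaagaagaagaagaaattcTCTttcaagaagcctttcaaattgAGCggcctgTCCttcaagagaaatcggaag

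The MARCKS window lies in exon 2 of 2 (chr6:113860034-113860108, plus strand) and the MARCKSL1 window in exon 2 of 2 (chr1:32334855-32334929, minus strand). They share 55 of 75 bases and encode the same residue at 19 of 25 positions. MARCKS has 4 serine codons there and MARCKSL1 has 3. A window with at least as many basic codons as that of MARCKS was present in 2.58% of 19484 coding genes searched.

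In PLEK the site was found as 2 basic codons, 2 serine or threonine codons, 2 basic codons and a serine codon in a row. This pattern was written for the PLEK site, so its match there was set in advance. It was present in 9 of the 19484 coding genes (0.0462%), once in PLEK and not in PLEK2. Capitals mark its serine and threonine codons (exon 3 of 9, chr2:68380843-68380887, plus strand).

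PLEK: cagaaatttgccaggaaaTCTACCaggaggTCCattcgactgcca

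The PKC isoforms carry a similar basic stretch of their own, the pseudosubstrate, in which an alanine stands at the place of the phosphorylated residue and holds the enzyme inactive. A pattern written for the pseudosubstrate matched once in each of the 6 isoforms, which was set in advance. It was present in 38 coding genes in all (0.195%). The 3 isoforms with the highest levels per length among the 6 are shown, with the alanine codon in capitals.

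PRKCD: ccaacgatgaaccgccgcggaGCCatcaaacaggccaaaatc

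PRKCB: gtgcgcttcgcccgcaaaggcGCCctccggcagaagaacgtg

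PRKCA: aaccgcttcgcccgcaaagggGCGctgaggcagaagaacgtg

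These windows lie at chr3:53181485-53181526 in exon 5 of 18, chr16:23836227-23836268 in exon 1 of 17 and chr17:66302903-66302944 in exon 1 of 17, all on the plus strand.

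Depth was 31054462 to 35770556 recovered reads per library. SLC2A3, the overexpressed gene, stood at 1183 to 1257.5 normalised reads with the empty vector and at 3716 to 4056 with SLC2A3. Normalised reads are read counts divided by 1 factor per library. The noncoding RNA RN7SL1 also did not overlap between the groups, at 538 to 1812 against 1922 to 6026 normalised reads, and replicate 2 was the highest in both. All 8 myeloid markers (CD33, MPO, ANPEP, SPI1, CEBPA, LYZ, CSF1R and ELANE) averaged at least 10 normalised reads. HBB and HBA1 among 5 erythroid markers, CD3D and CD3E among 5 T and NK cell markers and MS4A1 among 4 B cell markers had 0 reads in all libraries. The summed level of 5 fibroblast and epithelial markers was low, at 43.1 to 55.0 normalised reads with the empty vector and 81.7 to 95.9 with SLC2A3. The part of RN7SL1 and of these markers in the results below was not tested. In bulk RNA, fewer cells of a type and less RNA per cell cannot be told apart.

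Of the 10 genes, all of which passed the filter on low values, PLEK was lower and MARCKS higher in the SLC2A3 group at the threshold used for all genes (limma adjusted p under 0.05), and 8 were not past it. Over all 28015 tested genes 1.49% were past it, 0.692% higher and 0.8% lower. The groups did not overlap for 4 of the 10 genes (PLEK, MARCKS, PRKCB and PRKCD), against 16.3% of all tested genes. Since the genes were chosen with this contrast known, nothing is read from these counts. The median log2 fold change was -0.06 over the 10 genes and 0.00 over all tested genes. Log2 fold changes are of the value + 1, SLC2A3 over empty vector, with the standard error (SE) from a limma fit to all genes.

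**Figure D1:**
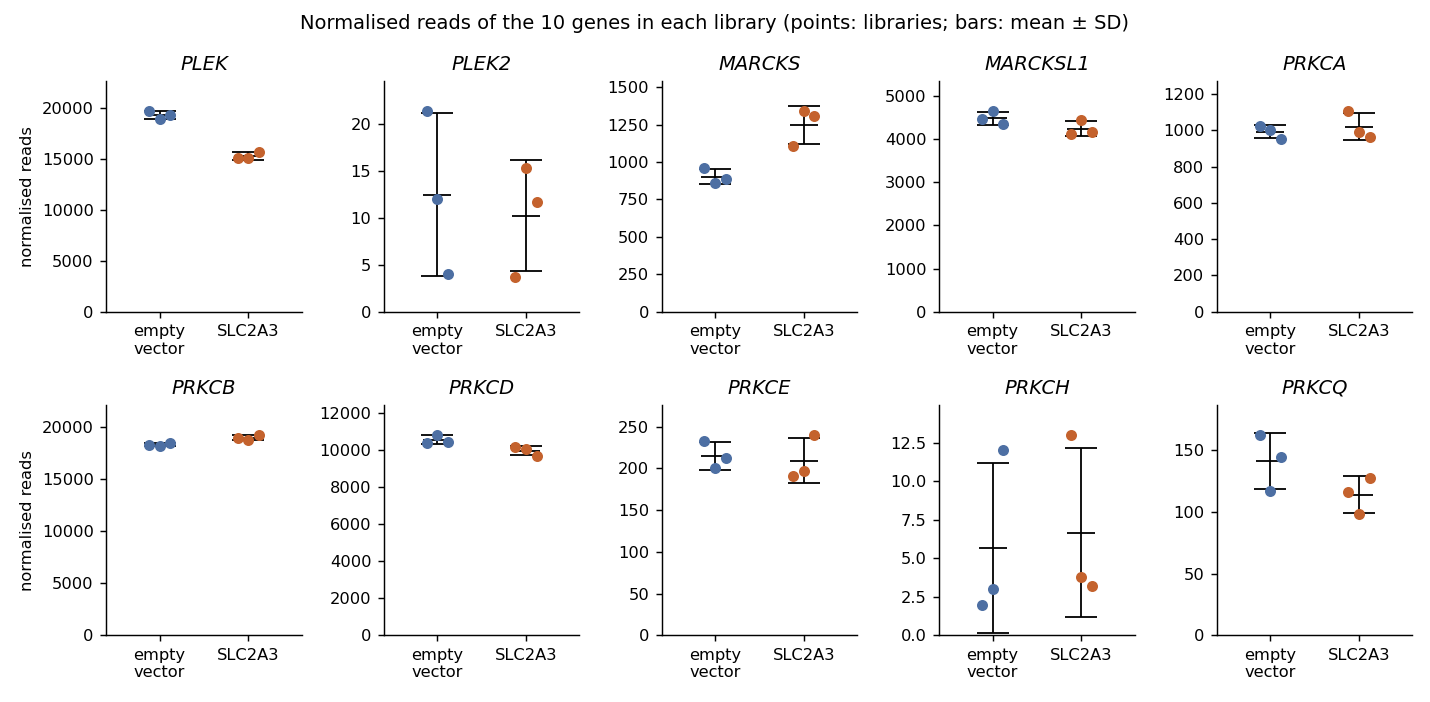
Normalised reads (y axis, from 0, a scale for each gene) of the 10 genes in the 3 empty vector and 3 SLC2A3 libraries. Points are libraries and bars the mean ± SD. PLEK is lower and MARCKS higher in all 3 SLC2A3 libraries, PRKCB and PRKCD are apart by small margins, and the other 6 genes overlap.

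Pleckstrin was one of the most abundant transcripts of these cells and was lower in the SLC2A3 group. PLEK (ENSG00000115956.10, chr2:68365173-68397453, plus strand) had 19709.7, 18945 and 19359 normalised reads with the empty vector and 15142, 15057 and 15727 with SLC2A3. The lowest empty vector library was above the highest SLC2A3 library. The means were 19338 ± 383 and 15309 ± 365 (SD, n = 3 per group), 1.26-fold lower, with a log2 fold change of -0.34 (SE 0.037). By normalised reads PLEK ranked 226 among 28015 tested genes in the empty vector group. Its difference of -4029 normalised reads was the 14th largest decrease in normalised reads. At a given fold change this measure is larger for abundant genes. PRKCB, with a log2 fold change of 0.05, ranked 226 among the increases by the same measure.

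Leaving out any 1 library gave a PLEK log2 fold change between -0.36 and -0.32, and leaving out both replicate 2 libraries gave -0.34. PLEK is abundant in platelets, so platelet markers are given beside it. The summed level of 8 megakaryocyte and platelet markers was 850 to 987 normalised reads with the empty vector and 718 to 891 with SLC2A3, and these ranges overlap. Of the 8, 5 averaged at least 10 normalised reads. The platelet receptor genes GP1BA (414 and 390.5 normalised reads on average) and ITGA2B (241 and 237) made up most of the sum, while PF4 and GP9 had at most 4 in any library. TREML1, a receptor of platelet granules, was the 1 marker of the 8 past the threshold and is named after its values were seen, at 189 ± 22.8 against 114 ± 29.1 normalised reads (n = 3, limma adjusted p = 0.0237). Its part in the PLEK difference was not tested.

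PLEK2, which encodes the broadly expressed relative pleckstrin-2, was near the lower limit of detection. PLEK2 (ENSG00000100558.9, chr14:67386983-67412200, minus strand) had 21, 12 and 4 reads with the empty vector and 4, 16 and 11 with SLC2A3. These are recovered whole reads, and the groups overlap over most of their range. The sums of 37 (95% exact Poisson interval 26.1 to 51.0) and 31 (21.1 to 44.0) cover counting error only. The log2 fold change was -0.19 (SE 0.62), and leaving out 1 library moved it between -0.78 and 0.35, so no direction can be given.

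MARCKS was higher in the SLC2A3 group, with the largest log2 difference of the 10 genes. MARCKS (ENSG00000277443.3, chr6:113857362-113863471, plus strand) had 958.5, 858 and 889 normalised reads with the empty vector and 1104, 1339.6 and 1304 with SLC2A3. All 3 SLC2A3 libraries were above all empty vector libraries, and replicate 1 was the lowest of them. The means were 902 ± 51.4 and 1249 ± 127 (n = 3), 1.39-fold higher, with a log2 fold change of 0.47 (SE 0.076). It lay between 0.41 and 0.55 when any 1 library was left out, and was 0.38 without both replicate 2 libraries.

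MARCKSL1, which encodes the smaller MARCKS-like protein, overlapped between the groups, unlike MARCKS. MARCKSL1 (ENSG00000175130.7, chr1:32333832-32336379, minus strand) had 4457, 4651.5 and 4345 normalised reads against 4121, 4444 and 4167, and the highest SLC2A3 library was above the lowest empty vector library. Its log2 fold change was -0.08 (SE 0.049). Per kilobase (kb) of exon, the level of MARCKSL1 was 12.5 ± 0.993 times that of MARCKS with the empty vector and 8.59 ± 0.708 times with SLC2A3 (n = 3). MARCKSL1 was the more abundant of the pair in every library, by a ratio of 8.04 to 13.6.

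Among the conventional isoforms, PRKCB was the main one and PRKCA a minor one. PRKCB, the isoform best known from B cells and myeloid cells (ENSG00000166501.14, chr16:23835946-24220611, plus strand), had 18300, 18204 and 18423 normalised reads against 18958, 18755 and 19248.5. The groups do not overlap, but the margin was small, with a log2 fold change of 0.05 (SE 0.036). The 3 empty vector libraries lay close together (variance over mean 0.657, where counting error alone gives about 1). PRKCA, a widely expressed isoform (ENSG00000154229.12, chr17:66302636-66810743, plus strand), had 1024, 1001 and 954 normalised reads against 1107, 992.5 and 965.5. Its groups overlap, its log2 fold change was 0.04 (SE 0.072), and leaving out 1 library moved it between -0.02 and 0.08. Per kb of exon, PRKCB was 18.6 ± 0.758 times as abundant as PRKCA with the empty vector and 18.8 ± 1.43 times with SLC2A3.

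Of the isoforms that need no calcium, PRKCD was by far the most abundant. PRKCD, whose protein takes part in myeloid differentiation and apoptosis (ENSG00000163932.15, chr3:53156009-53192717, plus strand), had 10402, 10843 and 10455 normalised reads against 10209, 10077.5 and 9699.6. The SLC2A3 libraries were all lower, by a small margin, with a log2 fold change of -0.08 (SE 0.040). PRKCQ, the isoform of T cell receptor signalling (ENSG00000065675.15, chr10:6427143-6580301, minus strand), had 162, 117 and 144 normalised reads against 116, 97.8 and 127. Empty vector replicate 2 fell within the range of the SLC2A3 libraries, so the groups overlap. The log2 fold change of -0.30 (SE 0.18) was between -0.43 and -0.20 when 1 library was left out.

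PRKCE and PRKCH were the other calcium-independent isoforms, and PRKCH was the lowest of the 6. PRKCE (ENSG00000171132.14, chr2:45651345-46187990, plus strand) had 233, 200 and 212 normalised reads against 190.4, 197.5 and 240.3, and the groups overlap. Its log2 fold change of -0.04 (SE 0.13) changed sign when single libraries were left out, from -0.15 to 0.02. PRKCH (ENSG00000027075.15, chr14:61187559-61550976, plus strand) had 2, 3 and 12 recovered reads against 14, 4 and 3. In each group 1 library held most of the reads. The sums of 17 (95% exact Poisson interval 9.90 to 27.2) and 21 (13.0 to 32.1) leave no direction for PRKCH, whose log2 fold change was between -0.26 and 0.92 without 1 library.

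Compared per length, the order of the 10 genes was the same in both groups: PLEK, PRKCD, MARCKSL1, PRKCB, MARCKS, PRKCA, PRKCQ, PRKCE, PLEK2 and PRKCH. The level was the normalised reads divided by the kb of exon that any transcript of the gene covers in GENCODE 29. PLEK had 5835 ± 116 normalised reads per kb with the empty vector and 4619.5 ± 110.1 with SLC2A3. PRKCD followed at 3112 ± 70.9 and 2943 ± 77.9, and PRKCH was last at 0.643 ± 0.623 and 0.756 ± 0.621. No pair of neighbours in the order overlapped between libraries of the same group. With the longest transcript as the length, the ranges of PRKCE and PRKCQ overlapped in both groups, and their means changed places in the SLC2A3 group, at 37.1 and 34.6 normalised reads per kb. The true length of the transcripts in these cells was not measured, so ratios between genes depend on the gene models.

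**Figure D2:**
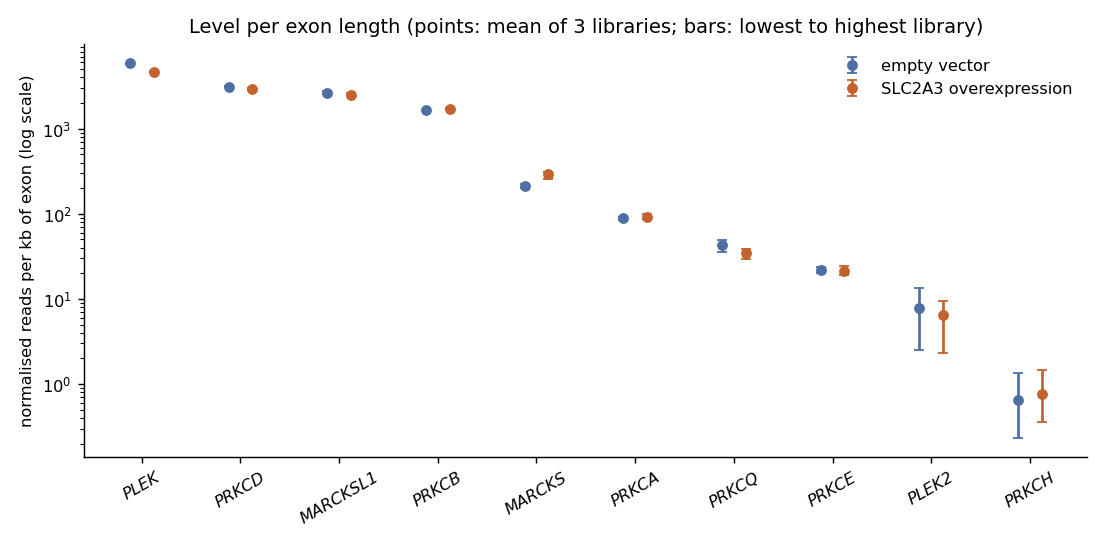
Normalised reads per kb of exon (y axis, log scale) of the 10 genes, in order of the empty vector mean. Points are means of 3 libraries and bars run from the lowest to the highest library. The empty vector means run from 5835 for PLEK down to 0.643 for PRKCH.

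PKC transcripts came almost wholly from a pair of genes. Over the 6 isoforms together with PRKCI and PRKCZ, PRKCD and PRKCB made up 94.7% to 95.4% of the summed PKC level per kb in every library. PRKCD alone made up 62.1% on average with the empty vector and 60.0% with SLC2A3, and PRKCB 33.0% and 34.9%. With the longest transcript as the length, the empty vector shares were 59.1% and 35.9%. The summed level was 5012 ± 50.8 and 4902 ± 59.0 normalised reads per kb. The 3 SLC2A3 libraries (4966, 4893 and 4849) were below the 3 empty vector libraries (4974, 5070.02 and 4993). The gap between the closest libraries of the groups (4974 and 4966) was smaller than either SD, while the means differed by more than either SD. The level of PLEK per kb was 3.53 ± 0.0627 times that of PRKCB with the empty vector and 2.70 ± 0.0322 times with SLC2A3.

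**Figure D3:**
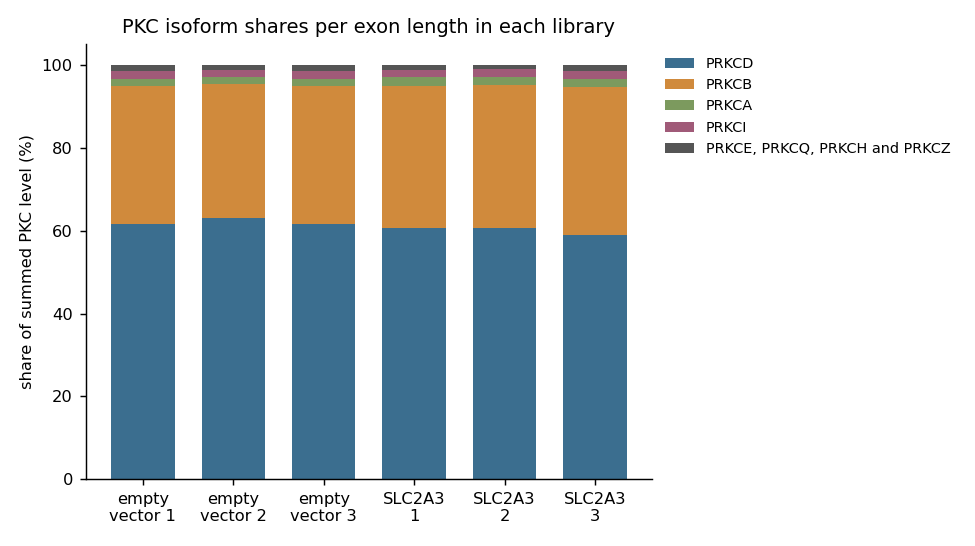
Share of the summed PKC level per kb of exon (y axis, %) of each isoform in each of the 6 libraries. PRKCD and PRKCB together fill 94.7% to 95.4% of every bar.

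The genes around PKC were examined from a list of 74 that the choice of the 10 genes did not use, ordered by role. This list too was chosen with earlier results of these data known. Its shares and adjusted p-values are therefore a description and not an independent test. Of the 74 genes, 68 passed the filter on low values, 0 rose and 3 fell (limma, adjusted over all genes), or 4.41% against 1.49% of all tested genes. At an unadjusted p under 0.05, 1 was higher and 15 lower, or 23.5% against 11.8% of all tested genes. Many of all tested genes have low values. With a filter of at least 50 in 3 libraries, 12.5% of 56 list genes were past the threshold against 5.53% of all tested genes. At an unadjusted p under 0.05 these shares were 26.8% and 18.6%. With scaling to equal upper quartiles of genes with reads, 0 passed by limma in either direction, and at an unadjusted p under 0.05 there were 2 higher and 5 lower, or 10.3% against 11.6%. The list median was -0.03. With edgeR 0 rose and 7 fell of 62 tested (background 3.29%), and with DESeq2 1 rose and 8 fell of 73 (background 2.1%).

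The 3 genes that fell belong to different roles. NCF1, a subunit of the phagocyte NADPH oxidase that PKC phosphorylates, had 8191.5, 8498 and 8272 normalised reads with the empty vector and 7276, 7435 and 6648 with SLC2A3. Every SLC2A3 library was below every empty vector library, with a log2 fold change of -0.23 (SE 0.045, n = 3, limma adjusted p = 0.00541). NCF1 has near-identical pseudogene copies with which reads can be shared, so its own level is uncertain. NCF1B stood at 2817 ± 189 and 2480 ± 39.1 normalised reads and NCF1C at 6082 ± 141 and 5435 ± 213, both named outside the rule for named genes.

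PIP5K1C, a kinase that makes PIP2, had 2924, 2927 and 3138 normalised reads against 2682, 2379 and 2487 (log2 fold change -0.25, SE 0.056, n = 3, limma adjusted p = 0.0126). PLCD3, a phospholipase C, had 492, 455 and 509 against 338, 375 and 407 (log2 fold change -0.38, SE 0.099, n = 3, limma adjusted p = 0.0463). In both, the groups do not overlap. Without SLC2A3 replicate 3 all 3 genes lost their call, and PLCD3 lost it without any 1 library other than empty vector replicate 2. PIP5K1C lost it also without empty vector replicate 3 or SLC2A3 replicate 2. NCF1 was past the threshold in 16 of 18 alternatives, PIP5K1C in 14 and PLCD3 in 9.

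Of 15 phospholipases C and inositol trisphosphate receptors, 1 fell and 14 were not past the threshold, with 4 of the 15 at an unadjusted p under 0.05. PLCB3, named after its values were seen, was not past it (adjusted p = 0.0698 by limma) and passed as lower with edgeR and DESeq2. The most abundant, PLCB2, the G protein-coupled phospholipase C of blood cells, stood at 10100.3 ± 174 and 9528 ± 362 normalised reads. Of 10 diacylglycerol kinases, which remove the activator of PKC, 7 were tested and 0 passed by limma, with 3 at an unadjusted p under 0.05. DGKQ passed with edgeR, and DGKQ and DGKD with DESeq2. DGKZ was the highest, at 13804 ± 179 and 13730.4 ± 378. Of 9 other diacylglycerol-binding proteins 0 passed by limma, with 2 at an unadjusted p under 0.05. Among them UNC13D, a priming factor for granule release, narrowly missed the threshold at 16986 ± 396.5 against 15408 ± 247 (log2 fold change -0.14, adjusted p = 0.0514), and passed with edgeR and DESeq2 (adjusted p = 0.0284 and 0.00128). UNC13D passed in 7 of 18 alternatives. With equal upper quartiles of genes with reads its log2 fold change was -0.08 (adjusted p = 0.692), and without empty vector replicate 3 its adjusted p was 0.283.

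Of 8 genes of the activating kinase PDPK1, phosphatases and anchoring proteins, 0 passed by limma, with 3 at an unadjusted p under 0.05, and 0 with edgeR. RACK1, a ribosomal scaffold that binds active PKC, was the highest of the whole list, at 55266 ± 2171 and 59532 ± 1334 normalised reads (log2 fold change 0.11, adjusted p = 0.13). It passed without empty vector replicate 2 (adjusted p = 0.0312) and with DESeq2 (0.0314), in all in 3 of 18 alternatives, and its adjusted p was 0.462 without empty vector replicate 3. Of 9 phosphoinositide kinases and phosphatases, 1 fell, with 2 at an unadjusted p under 0.05. INPP5D, which encodes the lipid phosphatase SHIP1 of blood cells, stood at 25200 ± 99.8 and 23037 ± 891 (log2 fold change -0.13, adjusted p = 0.0731), and passed with edgeR and DESeq2 (adjusted p = 0.0392 and 0.00559). INPP5D passed in 5 of 18 alternatives. With equal upper quartiles of genes with reads its log2 fold change was -0.07 (adjusted p = 0.747), and its adjusted p was up to 0.255 when 1 library was left out.

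Of 9 other PKC substrates 7 were tested and 1, NCF1, fell, with 2, NCF1 among them, at an unadjusted p under 0.05. PPP1R14B, a phosphatase inhibitor that PKC activates, was the most abundant at 9000.1 ± 59.7 and 9229 ± 299 normalised reads. Of 9 other kinases related to PKC 8 were tested, with 0 past the threshold by limma and 0 at an unadjusted p under 0.05. Of 5 PKC-linked NF-kB and MAP kinase adaptors 0 passed, also with 0 at an unadjusted p under 0.05, and CARD9 stood at 3520.5 ± 67.1 and 3464 ± 131. In these last 2 roles edgeR and DESeq2 also called 0 genes.

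**Figure D4:**
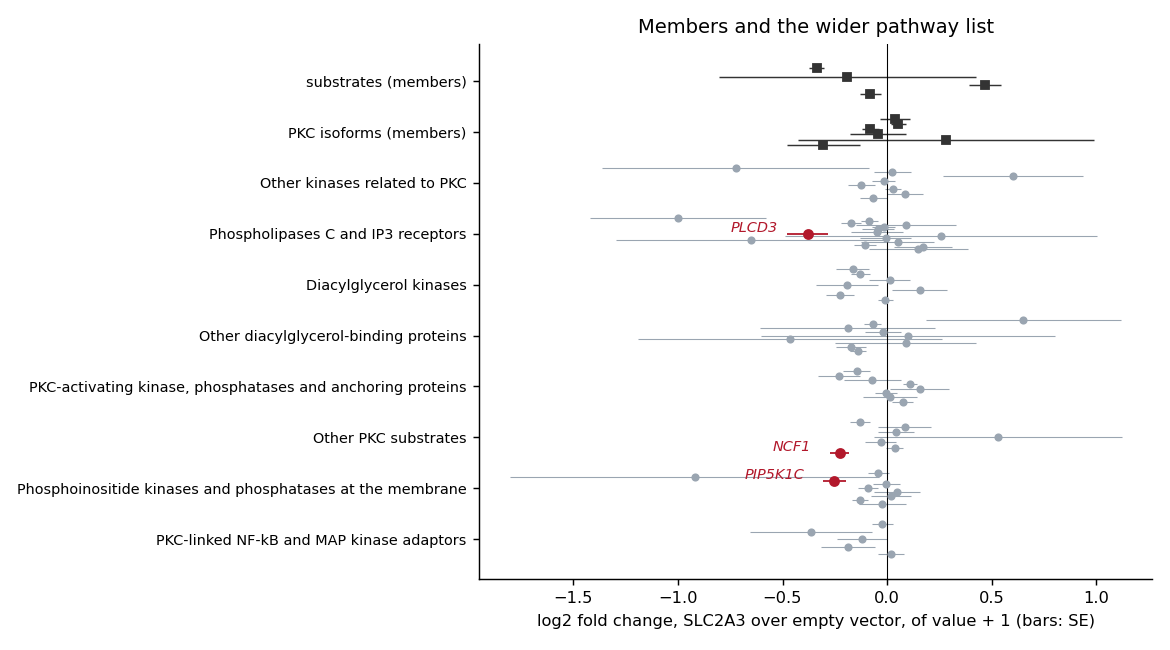
Log2 fold change of value + 1 (x axis, SLC2A3 over empty vector) with SE bars for the 10 genes (squares, 4 substrates and 6 isoforms) and for 68 tested genes of the wider list by role (circles). The 3 genes that fell, PLCD3, NCF1 and PIP5K1C, are named, and most other circles lie near 0.

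The genes whose values followed PLEK and MARCKS most closely over the 6 libraries were found by Pearson correlation of log2(value + 1) among 11730 genes with a mean of at least 100 normalised reads. The 6 libraries fall into 2 groups that differ in both genes, and many genes were compared, so these are descriptions only. For PLEK they were SLC9A8 (r = 0.997), GTF3C1 (0.997), SPTLC2 (0.995), DLL4 (0.995) and FNBP1 (0.995). For MARCKS they were HSP90B1 (r = 0.991), SLC25A38 (0.991), NME7 (0.990), ATG12 (0.988) and HSPH1 (0.987).

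Other genes overlap some of the 10 in the annotation. None that overlaps PLEK, PRKCA, PRKCE or PRKCH averaged 10 normalised reads or more. ENSG00000279202 and ENSG00000279554, on the same strand as PRKCB, averaged 15.6 and 11.4 and share no exonic base with it.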

How the data were processed

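Each deposited file holds a normalised signal per gene ID, which the values show to be read counts divided by 1 factor per library: 100% of the values came out as whole reads, within 0.001 reads, for 1 step size in each library. The factors (0.936 to 1.08) equalled median-of-ratios factors computed on the recovered reads. BWA, TopHat2 and hg38 are named in the submitters' processing notes without roles or versions; annotation and strand use in counting are not given in the sources used here.

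log2(value + 1) was fitted with limma 3.58.1 (trend; R 4.3.3), with a single term for group, over the 28015 genes that reached 1 in 3 or more libraries, with Benjamini-Hochberg adjustment over all of them and a threshold of 0.05. The plan named this test for counts divided by library factors. Functions were tested on simulated counts. Alternatives used edgeR 4.0.16 and DESeq2 1.42.0 on recovered reads, other scalings, pseudocounts and filters, a replicate block and left-out libraries. The 10 genes and all lists were chosen with earlier results of these data known. Named genes were the 10, SLC2A3, called genes of the list of 74, the most abundant gene of each role (for 1 role not reported here), genes overlapping the 10, and the 5 most correlated with PLEK and with MARCKS. Gene models and coordinates are from GENCODE 29 on GRCh38, 1-based, matched by ID without version. Values are means ± SD. Whether the replicates came from separate cultures is not stated, and the p-values then reflect just how much these libraries vary, which may be technical. Intervals on reads cover counting error only. No protein sequence was used here.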

Additional observations from a re-analysis of the deposited data

How the results depend on the processing

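SLC2A3 stayed past the threshold in all 18 alternatives, with log2 fold changes of 1.68 to 1.76. Those of PLEK and MARCKS ranged from -0.36 to -0.27 and from 0.38 to 0.55, given as a description since the genes were chosen on this contrast. PLEK2, PRKCA, PRKCE and PRKCH changed sign when single libraries were left out. Scaling by the upper quartile of genes with reads in each library moved the median log2 fold change of genes with a mean of at least 100 from -0.01 to 0.05 and gave 210 genes higher and 37 lower, against 194 and 224, and 0 genes of the list of 74 lower; it moved PLEK to -0.27, MARCKSL1 to -0.02, PRKCB to 0.12 and PRKCD to -0.02. With the upper quartile of the same tested genes in every library, an alternative chosen after seeing the data, 190 were higher and 183 lower. edgeR gave 285 higher and 328 lower with TMM factors and 297 higher with relative log expression factors, and 7 list genes lower with either. DESeq2 gave 343 higher, 441 lower, and 1 higher and 8 lower in the list. A filter of at least 50 in 3 libraries, with fewer genes tested, gave 322, 417 and 7 list genes lower. A pseudocount of 0.1 gave 144 lower. Leaving out 1 library, with fewer samples, gave 100 to 222 genes higher, 88 to 244 lower, and 0 to 1 list genes higher and 0 to 4 lower; the counts moved over 1.5-fold without empty vector replicate 1 or 3 or SLC2A3 replicate 2 or 3 (each alone). With the pair of replicate 2 libraries, highest in RN7SL1, left out, 256 genes were higher and 260 lower. In the list of 74, 1 gene (RACK1) was then higher and 4 lower. The cause of these shifts was not tested. The labels do not say whether the replicate numbers pair the libraries. Deviations from the group means correlated at -0.08, 0.00 and 0.00 between libraries of the same number (13277 genes). Values near 0 cannot exclude a shared batch or culture. A replicate block gave 167 genes higher and 196 lower, with 2 list genes lower (PLCD3 lost its call, limma adjusted p = 0.0554). The order per kb was the same with the longest transcript in the empty vector group. Low reads limit PLEK2 and PRKCH.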
